A study of Homo sapiens with 3 samples.

Results

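The genes described here are 10 components and response genes of transforming growth factor beta (TGF-beta) and bone morphogenetic protein (BMP) signalling, out of 60554 genes in the count table. They were taken by symbol: the ligand genes TGFB1, TGFB2 and BMP4, the receptor genes TGFBR1 and TGFBR2, the target genes ID1, ID2 and ID3, and the inhibitory SMAD genes SMAD6 and SMAD7. All 10 were found in the table, and all 10 passed the filter on low counts. RNA was sequenced from KYSE30, an established line of human esophageal squamous cell carcinoma, to ask how expression differs once SNORD12B is depleted, a small nucleolar RNA of the class that guides methylation of ribosomal RNA. There were 3 stable lines with 1 library each. One carried a first shRNA against SNORD12B (the sh1-labelled library), one carried a second (the sh2-labelled library), and the control carried pLKO.1, labelled a vector but described in the protocol as a scrambled shRNA with no target. Every line, the control included, had been infected for 24 hours with lentivirus from a pLKO.1-blast plasmid, kept under blasticidin at 5 ug/mL over 2 weeks and grown with 10% serum. The labels name no replicate culture and no clone.

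TGF-beta and BMP ligands bind pairs of type I and type II receptor kinases, which phosphorylate SMAD proteins that enter the nucleus and switch genes on or off. TGF-beta signals mainly through SMAD2 and SMAD3, and BMPs through SMAD1, SMAD5 and SMAD9. The ID genes are classic BMP targets, and SMAD6 and SMAD7 are induced by the pathway and inhibit it in turn. In squamous epithelium TGF-beta is best known for restraining the division of epithelial cells, and BMPs for acting on differentiation. Serum itself contains ligands of this family.

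The sh1-labelled library is the one in which these genes, TGFBR1 excepted, lay furthest from the control. There the ligand genes separated from the ID and inhibitory SMAD genes, while the receptor genes lay on opposite sides of the control. All 3 ligand genes were higher than in the control, as were 51.5% of all tested genes. All 5 ID and inhibitory SMAD genes were lower, SMAD7 within counting error, as were 48.5% of all tested genes. Other ligand genes of the family did not follow: of 16 with a count, 10 lay below the control there and 6 above it. Of all genes with a count, 44.6% lay below it. BMP4 stood 1.82 times as high as in the control and SMAD6 0.553 times as high, the widest ratios of the 10 in either direction. In the sh2-labelled library the same roles did not separate in this way. There TGFBR1, at 1.70 times the control, was furthest from it. None of the 10 passed the test of both shRNA lines against the control. In such bulk libraries, fewer cells that express a gene and less of its RNA per cell cannot be told apart.

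Total counts were 15146805 in the sh1-labelled library, 17336936 in the sh2-labelled library and 15473922 in the control. SNORD12B itself was counted 15 times in the sh1-labelled library and 1 time in the sh2-labelled library, against 7 times in the control, so the label of the first was not borne out by its reads and the knockdown could not be checked at these counts. The squamous markers chosen for the cell type check were present in part. TP63, SOX2, KRT6A, KRT14, KRT17, EPCAM, CDH1 and DSG3 passed the filter, whereas KRT5 had 3 and 2 counts in the sh1- and sh2-labelled libraries and 1 count in the control. Summed over all 9 squamous markers, the level was 928 and 1286 CPM (counts scaled to a common library size) in the sh1- and sh2-labelled libraries, against 1488 CPM in the control. Of these markers, 8 lay below the control in the sh1-labelled library and 6 in the sh2-labelled library. Over all genes with a count, 44.6% did so with the sh1 label and 48.4% with the sh2 label. CDH1 and EPCAM, which encode general epithelial adhesion proteins, made up most of the sum. The lineage factor gene SOX2 differed far more than the sum, at 12.2 and 38.9 CPM in the sh1- and sh2-labelled libraries, against 104 CPM in the control, and so did the keratin gene KRT17, at 15.5 and 52.9 CPM in the sh1- and sh2-labelled libraries, against 94.6 CPM in the control. The keratin gene KRT6A was lowest with the sh2 label, at 90.1 and 51.4 CPM in the sh1- and sh2-labelled libraries, against 175 CPM in the control. Of the 5 fibroblast markers, COL1A2, DCN and LUM had 0 counts in all 3 libraries, PDGFRB had 0 and 8 counts in the sh1- and sh2-labelled libraries and 1 in the control, and COL1A1 had 142 and 230 counts in the sh1- and sh2-labelled libraries and 245 in the control. Their sum was 9.34 and 13.7 CPM in the sh1- and sh2-labelled libraries, against 16.01 CPM in the control. The 3 endothelial markers summed to 0.921 and 5.81 CPM in the sh1- and sh2-labelled libraries, against 3.71 CPM in the control, most of it CDH5 with 13 and 91 counts in the sh1- and sh2-labelled libraries and 40 in the control, while PECAM1 had 1 count in the sh2-labelled library and 0 in the others. The 3 leukocyte markers summed to 1.12 and 1.90 CPM in the sh1- and sh2-labelled libraries, against 1.95 CPM in the control, and PTPRC had 1 count in the sh2-labelled library and 0 in the others. The part of these markers in the results was not tested.

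Promoter windows of 4 of the 5 genes that lay lower together in the sh1-labelled library are shown because SMAD proteins act through short DNA words near such targets. The windows are the 250 bases upstream of the RefSeq start on GRCh38.p14, written 5′ to 3′ along the gene's strand. Capitals mark the SMAD box GTCT on either strand, so that AGAC is its reverse complement, and adjoining boxes merge into 1 capital run. ID1, ID2, ID3 and SMAD6 have 1 window each. Those of ID2 and ID3 lie wholly within the span of the gene as counted, which starts further upstream. SMAD7, the fifth, has 3 windows, which hold 4, 5 and 1 GTCT boxes and no GTCTAGAC, and they are not printed because RefSeq gives it several starts.
ID1 (chr20:31605039-31605288, plus strand): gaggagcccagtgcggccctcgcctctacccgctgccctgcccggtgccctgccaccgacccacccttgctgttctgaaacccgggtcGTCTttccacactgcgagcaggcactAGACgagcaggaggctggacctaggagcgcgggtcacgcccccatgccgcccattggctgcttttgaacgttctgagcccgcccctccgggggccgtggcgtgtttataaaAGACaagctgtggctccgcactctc
ID2 (chr2:8681806-8682055, plus strand): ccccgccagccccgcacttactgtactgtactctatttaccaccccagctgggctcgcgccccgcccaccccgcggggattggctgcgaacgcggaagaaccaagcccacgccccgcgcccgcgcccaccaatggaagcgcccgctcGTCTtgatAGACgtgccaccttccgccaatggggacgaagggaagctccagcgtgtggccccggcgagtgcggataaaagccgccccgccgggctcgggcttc
ID3 (chr1:23559502-23559751, minus strand): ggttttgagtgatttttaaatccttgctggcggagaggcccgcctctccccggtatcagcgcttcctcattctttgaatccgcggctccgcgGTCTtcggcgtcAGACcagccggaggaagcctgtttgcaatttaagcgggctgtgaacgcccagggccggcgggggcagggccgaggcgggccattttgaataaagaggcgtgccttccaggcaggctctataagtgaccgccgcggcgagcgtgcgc
SMAD6 (chr15:66701986-66702235, plus strand): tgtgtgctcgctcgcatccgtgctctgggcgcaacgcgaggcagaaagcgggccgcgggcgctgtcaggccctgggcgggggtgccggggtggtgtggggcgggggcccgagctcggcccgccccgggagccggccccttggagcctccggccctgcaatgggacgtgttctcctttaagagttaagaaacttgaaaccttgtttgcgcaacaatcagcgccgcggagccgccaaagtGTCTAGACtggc
The SMAD6 window holds GTCTAGAC near its end, the palindrome in which a GTCT and an AGAC box join, starting 12 bases upstream of the RefSeq start. This palindrome stood in 1 of the 22 windows that RefSeq gives for the 10 genes and in 0.182% of all 35116 windows of that length. The box GTCT alone is common: 17 of the 22 windows held it, as did 77.5% of all windows. GGCGCC, the GC-rich word of BMP response elements, searched on both strands and unable to overlap a GTCT box, stood in 2 of the 22 windows and in 16.4% of all windows. It was in none of the windows printed here. A match describes the letters only.

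Levels are given as CPM, scaled by the trimmed mean of M-values (TMM), with 95% exact Poisson intervals that cover counting error only. Per length of exon, ID1 was the most abundant of the 10 in every library. It stood at 152 and 295 RPKM (CPM per kilobase of exon) in the sh1- and sh2-labelled libraries, against 225 RPKM in the control. ID3 came next in each library, and TGFB1 and TGFBR2 shared the third and the fourth place. TGFB2, SMAD6 and SMAD7 took the 3 lowest places in each library, between 1.73 and 3.12 RPKM. The middle of the order was not fixed. BMP4 ranked above TGFBR1 and ID2 in the sh1-labelled library and in the control, and below both in the sh2-labelled library.

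**Figure D1:**
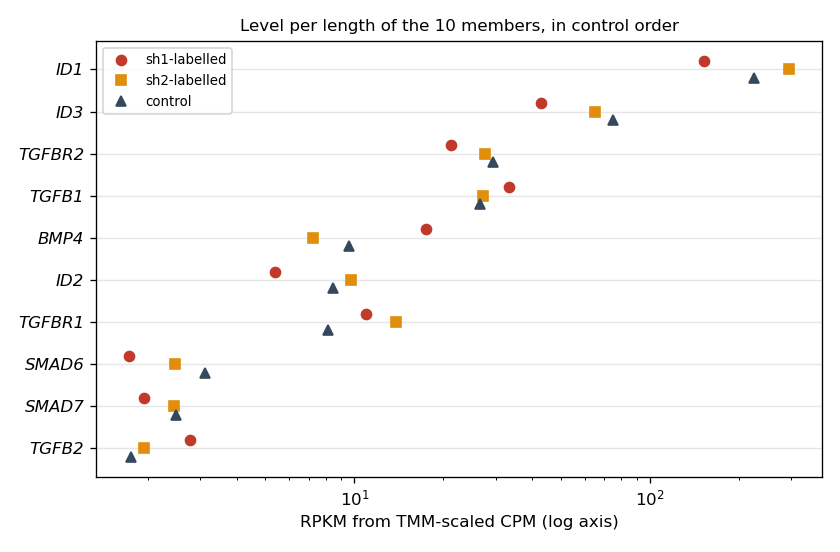
Level per length of exon (RPKM, log axis) of the 10 genes in the sh1- and sh2-labelled libraries and in the control, ordered by the control, 1 library per point. ID1 and ID3 lead in every library, and BMP4 and ID2 exchange places between libraries.

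TGFB1, which encodes the most widely expressed TGF-beta ligand, lies on chromosome 19 from 41301587 to 41353911 on the minus strand of hg38 (ENSG00000105329.9). It stood at 108 CPM (103 to 114) in the sh1-labelled library and 88.3 CPM (83.9 to 92.8) in the sh2-labelled library, against 86.2 CPM (81.6 to 91.0) in the control. The first library was the high one, and the other two overlapped within counting error. The ratio to the control was 1.26 (exact conditional interval 1.17 to 1.35) for the sh1-labelled library and 1.02 (0.951 to 1.10) for the sh2-labelled library. On the opposite strand HNRNPUL1 overlaps 6.64% of its exonic bases, and it stood at 411 and 356 CPM in the sh1- and sh2-labelled libraries, against 350.0 CPM in the control. Its part in the TGFB1 count was not tested.

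TGFB2, a second TGF-beta ligand gene (ENSG00000092969.11, chromosome 1, 218346235 to 218444619, plus strand), stood at 14.3 CPM (12.4 to 16.3) in the sh1-labelled library and 10.0 CPM (8.57 to 11.6) in the sh2-labelled library, against 9.05 CPM (7.61 to 10.7) in the control. It was again highest with the sh1 label, by a ratio of 1.58 (1.27 to 1.97), while the ratio of 1.11 (0.879 to 1.39) for the sh2-labelled library had an interval that includes 1. TGFB2-OT1, a gene inside it on the same strand, covers 26.6% of its exonic bases and had 0 counts in every library. Per the file headers no option was set to count reads that overlap several genes, so the level of TGFB2 per length may be understated in all 3 libraries alike.

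BMP4, which encodes a BMP ligand, lies on chromosome 14 from 53949736 to 53958761 on the minus strand (ENSG00000125378.15). It had 820 counts in the sh1-labelled library and 388 in the sh2-labelled library, against 455 in the control. These are 53.9 CPM (50.3 to 57.7) and 22.3 CPM (20.1 to 24.6) in the sh1- and sh2-labelled libraries, against 29.6 CPM (27.0 to 32.5) in the control. The shRNA lines thus lay on opposite sides of the control, and none of the 3 intervals overlapped. The ratio to the control was 1.82 (1.62 to 2.05) for the sh1-labelled library and 0.753 (0.656 to 0.864) for the sh2-labelled library. Between the shRNA libraries the ratio of the first to the second was 2.42 (2.14 to 2.73), the widest of the 10 genes upward. Of all tested genes, 97.0% had a log2 ratio between these libraries at or below that of BMP4.

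The receptor genes lay on opposite sides of the control. TGFBR1 encodes the type I TGF-beta receptor, the kinase that phosphorylates SMAD2 and SMAD3 (ENSG00000106799.12, chromosome 9, 99104038 to 99154192, plus strand). It stood at 74.8 CPM (70.5 to 79.3) in the sh1-labelled library and 94.4 CPM (89.9 to 99.1) in the sh2-labelled library, against 55.7 CPM (52.0 to 59.5) in the control. Both shRNA libraries were higher than the control, with ratios of 1.34 (1.23 to 1.47) for the sh1 label and 1.70 (1.56 to 1.84) for the sh2 label. The intervals lay wholly above 1, and both ratios share the 1 control library. TGFBR2 encodes the type II receptor, which binds the ligand first and activates the type I receptor (ENSG00000163513.17, chromosome 3, 30606502 to 30694142, plus strand). It stood at 99.4 CPM (94.5 to 105) in the sh1-labelled library and 130.0 CPM (125 to 136) in the sh2-labelled library, against 139 CPM (133 to 145) in the control. The sh1-labelled library was the low one, with a ratio of 0.716 (0.670 to 0.765), while the sh2-labelled library was close to the control at 0.937 (0.882 to 0.994). Per length, TGFBR2 was 1.93 and 2.00 times as abundant as TGFBR1 in the sh1- and sh2-labelled libraries, against 3.63 times in the control.

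**Figure D2:**
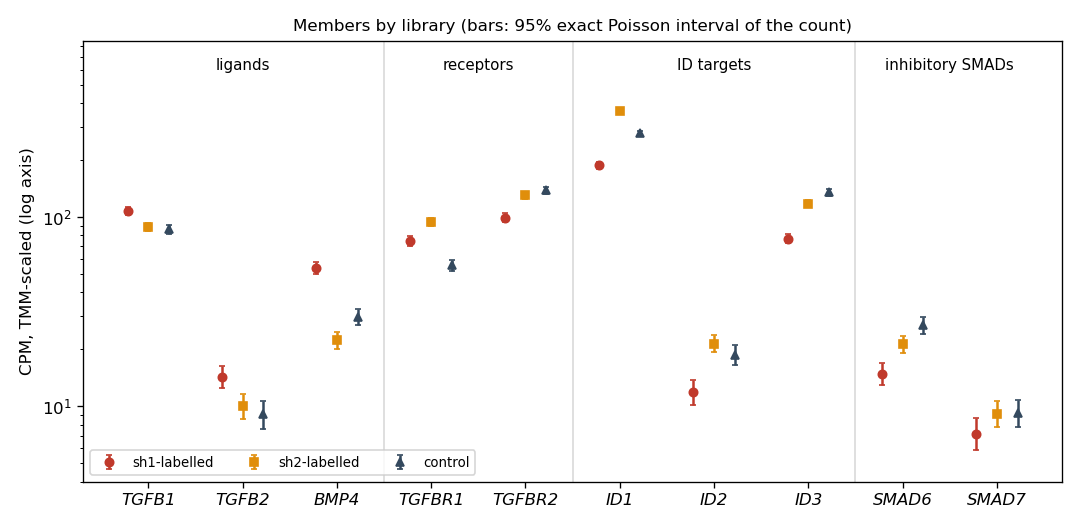
CPM (TMM-scaled, log axis) of the 10 genes in the sh1- and sh2-labelled libraries and in the control, grouped by role, with 95% exact Poisson intervals of the counts and 1 library per point. The sh1-labelled library is the highest for all 3 ligand genes and the lowest for all 5 ID and inhibitory SMAD genes, for SMAD7 within counting error.

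ID1, ID2 and ID3 encode helix-loop-helix proteins without a DNA-binding region, which hold partner transcription factors off DNA. ID1 (ENSG00000125968.8, chromosome 20, 31605283 to 31606515, plus strand) had 2848 counts in the sh1-labelled library and 6324 in the sh2-labelled library, against 4255 in the control. These are 187 CPM (180 to 194) and 364 CPM (355 to 373) in the sh1- and sh2-labelled libraries, against 277 CPM (269 to 285) in the control. The control lay between the shRNA lines, with ratios of 0.676 (0.645 to 0.709) for the sh1 label and 1.31 (1.26 to 1.36) for the sh2 label. ID1 had the most counts of the 10, so its counting intervals are the narrowest. The ratio of the first shRNA library to the second was 0.515 (0.493 to 0.538), and 7.16% of tested genes lay at or below it.

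ID2 (ENSG00000115738.9, chromosome 2, 8678845 to 8684453, plus strand) followed ID1 in order. It stood at 11.8 CPM (10.2 to 13.7) in the sh1-labelled library and 21.4 CPM (19.3 to 23.7) in the sh2-labelled library, against 18.7 CPM (16.6 to 21.0) in the control. The ratio was 0.634 (0.523 to 0.766) for the sh1 label and 1.15 (0.981 to 1.34), an interval that includes 1, for the sh2 label. Its antisense partner ID2-AS1 overlaps 1.72% of its exonic bases and had 6 and 22 counts in the sh1- and sh2-labelled libraries, against 19 in the control. ID3 (ENSG00000117318.8, chromosome 1, 23557918 to 23559794, minus strand) was below the control in both shRNA libraries. It stood at 76.9 CPM (72.5 to 81.4) in the sh1-labelled library and 117 CPM (112 to 123) in the sh2-labelled library, against 135 CPM (129 to 141) in the control. Its ratios were 0.570 (0.530 to 0.613) and 0.871 (0.819 to 0.926) for the sh1 and sh2 labels, both to the same control.

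Taken with ID4, a member of the same family from the wider pathway list, the summed level per length was 204 and 379 RPKM in the sh1- and sh2-labelled libraries, against 322 RPKM in the control. ID1 made up 74.6% and 77.9% of that sum in the sh1- and sh2-labelled libraries, against 69.9% in the control. ID4 made up 1.78% and 2.28% in the sh1- and sh2-labelled libraries, against 4.15% in the control. The share of ID2 lay between 2.57% and 2.64% in all 3 libraries.

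SMAD6 encodes an inhibitory SMAD that acts mainly on BMP receptors and SMAD1 (ENSG00000137834.14, chromosome 15, 66702228 to 66782848, plus strand). It stood at 14.8 CPM (12.9 to 16.9) in the sh1-labelled library and 21.2 CPM (19.1 to 23.5) in the sh2-labelled library, against 26.8 CPM (24.2 to 29.5) in the control. None of the 3 intervals overlapped, and the control was the highest. The ratios were 0.553 (0.468 to 0.652) for the sh1 label and 0.793 (0.687 to 0.915) for the sh2 label. SMAD7, which encodes the inhibitory SMAD that also blocks TGF-beta receptors, was the only one of the 10 with an interval that includes 1 for each label (ENSG00000101665.8, chromosome 18, 48919853 to 48950711, minus strand). It stood at 7.17 CPM (5.89 to 8.65) in the sh1-labelled library and 9.08 CPM (7.72 to 10.6) in the sh2-labelled library, against 9.18 CPM (7.73 to 10.8) in the control. Both ratios, 0.781 (0.602 to 1.01) and 0.990 (0.784 to 1.25) for the sh1 and sh2 labels, had intervals that include 1, so no difference of SMAD7 was detectable at this depth.

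**Figure D3:**
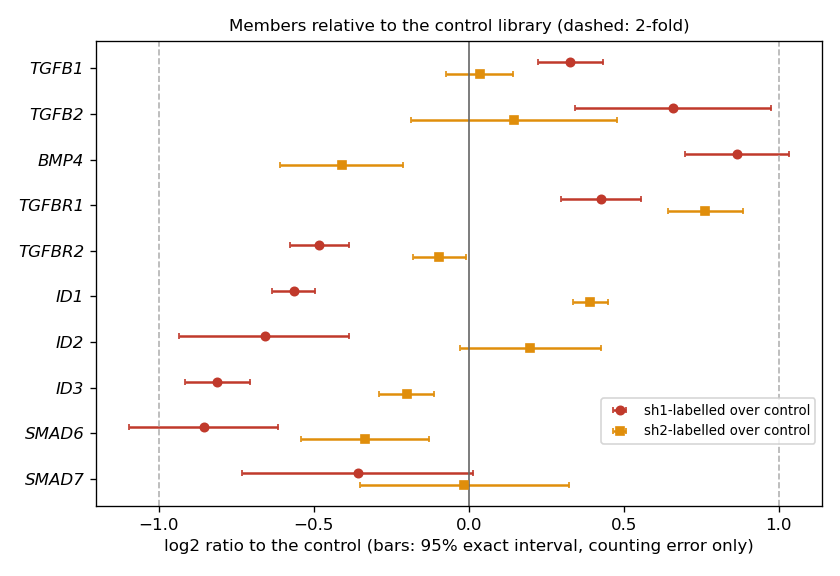
Log2 ratio to the control of the 10 genes in the sh1- and sh2-labelled libraries, with 95% exact intervals for counting error only and dashed lines at 2-fold. With the sh1 label the ligand genes lie right of 0 and the ID and inhibitory SMAD genes left of it, and no point of either library passes 2-fold.

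Counting intervals say only how far 2 libraries differ, and libraries differed for many genes. Against the control, 4 of the 10 genes had an interval wholly above 1 with the sh1 label, where the same held for 25.6% of all 17801 tested genes, and 5 had one wholly below 1, where it held for 24.1%. With the sh2 label the numbers were 2 above, beside 23.3% of tested genes, and 4 below, beside 24.2%. None of the 10 was at least 2-fold higher or lower than the control with either label. That threshold was passed upward by 3.74% and downward by 5.58% of tested genes with the sh1 label, and by 2.98% and 3.46% with the sh2 label. At 1.5-fold, a threshold added after the data were seen, BMP4 and TGFB2 were higher and ID2, ID3 and SMAD6 lower with the sh1 label, beside 10.8% of tested genes higher and 12.7% lower. With the sh2 label, TGFBR1 alone passed 1.5-fold, beside 9.38% of tested genes higher and 9.92% lower.

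The position among all tested genes gives the same picture in ranks. In the log2 ratio of the sh1-labelled library to the control, 94.9% of tested genes lay at or below BMP4 and 91.0% at or below TGFB2. At the other end 7.34% lay at or below SMAD6, 7.88% at or below ID3, 11.0% at or below ID2 and 13.4% at or below ID1. These ranks place BMP4 and SMAD6 outside the middle of the distribution, though many genes lay further out. For the sh2-labelled library the corresponding shares were 16.8% for BMP4, 83.0% for ID1 and 94.4% for TGFBR1.

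The test of both shRNA lines against the control, edgeR's quasi-likelihood test, called 0 of the 10 genes and 0 of 17801 genes (0%) at the adjusted threshold of 0.05. Before adjustment 0 of the 10 had a p below 0.05, as did 237 genes in all (1.33%), and DESeq2 called 0 of the 10 as well. Only the 2 shRNA lines give that test a spread within a group, since no line had a replicate. The test moderates each gene's spread toward the trend over all tested genes, with 8.35 prior degrees of freedom against 1 residual. The single control library is taken to vary like the shRNA lines. The largest log2 fold change was that of TGFBR1, at 0.60 (SE 0.34, unadjusted p = 0.104, adjusted p = 1.00 by edgeR). SMAD6 followed at -0.57 (SE 0.38) and ID3 at -0.47 (SE 0.35). For ID1 the shRNA lines lay on both sides of the control, and the log2 fold change was -0.01 (SE 0.40). The median over the 10 genes was -0.09, beside 0.01 over all tested genes. By single library it was -0.42 with the sh1 label and 0.01 with the sh2 label, beside 0.01 and -0.002 over all tested genes.

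The wider pathway was read from a list of 96 further genes, of which 80 passed the filter and 0 passed the test in either direction by edgeR (0% of all tested genes). Before adjustment 1 of them, INHBB, was higher at p below 0.05 (0.41% of all tested genes were), and 6 were lower (0.921% of all tested genes were), namely BMP7, BMP8B, CCN2, RHOB, ID4 and DLX5. INHBB encodes a subunit of activin B and had 24 and 28 counts in the sh1- and sh2-labelled libraries, against 4 in the control. DLX5, a homeobox gene, had 6 and 20 counts in the sh1- and sh2-labelled libraries, against 62 in the control. The p-value of DLX5 rests on few counts. INHBB passed the filter on low counts only through the shRNA libraries, where it was higher, so its p-value supports nothing here. The counts by role below therefore take every listed gene with a count in any library, filtered or not.

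Most other BMP target genes lay below the control with the sh1 label. Of the 8 listed, 7 did so, with a median log2 ratio of -0.69 over the 8, where 44.6% of all genes with a count lay below the control. With the sh2 label, 4 of the 8 lay below it, with a median of -0.06, where 48.4% of all genes with a count did. MSX1, the exception with the sh1 label, had 2 and 3 counts in the sh1- and sh2-labelled libraries, against 2 in the control. ID4, the fourth ID gene, stood at 8.48 and 20.2 CPM in the sh1- and sh2-labelled libraries, against 31.3 CPM in the control. HEY1, which encodes a repressor shared by the BMP and Notch pathways, stood at 5.98 and 17.6 CPM in the sh1- and sh2-labelled libraries, against 26.2 CPM in the control. GATA3, an epithelial transcription factor gene, stood at 40.4 and 47.8 CPM in the sh1- and sh2-labelled libraries, against 54.8 CPM in the control. In each of these the sh1-labelled library was the lowest and the control the highest, as in DLX5. ID4, HEY1 and GATA3 were named for their large fold changes over both shRNA lines, a choice that favours a control at one end. MSX2, ATOH8 and GATA2 were highest in the sh2-labelled library, at 54.1, 11.2 and 26.8 CPM, against 51.2, 9.63 and 21.5 CPM in the control. The sum of squamous markers had the order of ID4, HEY1 and GATA3. It stood at 928 and 1286 CPM in the sh1- and sh2-labelled libraries, against 1488 CPM in the control. Its part in these values was not tested. The list was chosen for BMP response from general knowledge but with earlier results of these data known, so it gives no independent support. Notch and other pathways also act on several of its genes.

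Between the shRNA libraries, which share no control in this comparison, ID1, ID2, ID3, SMAD6 and SMAD7 all lay lower with the sh1 label than with the sh2 label, by a median log2 ratio of -0.61. The same held for 49.9% of all tested genes. For SMAD7 the ratio was 0.789 (0.612 to 1.01), an interval that includes 1. The 8 BMP target genes lay lower as well, by a median of -0.84, where 46.5% of all genes with a count did. The ligand genes TGFB1, TGFB2 and BMP4 all lay higher, by a median of 0.51, where 50.1% of all tested genes did. With 1 library each there is no test of these differences.

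Secreted antagonists had no common direction. Of 12 listed, 10 had a count in any library, and 6 of these lay above the control with the sh1 label and 4 with the sh2 label, where 49.7% and 46.2% of all genes with a count did with the sh1 and sh2 labels. SOSTDC1, with 0 and 1 counts in the sh1- and sh2-labelled libraries against 13 in the control, and CHRD, with 0 and 5 counts in the sh1- and sh2-labelled libraries against 9 in the control, lay below it at counts too low for the filter. BMPER lay above it, with 59 and 13 counts in the sh1- and sh2-labelled libraries, against 7 in the control. FST, which encodes follistatin, an extracellular trap for activins, stood at 53.3 and 18.1 CPM in the sh1- and sh2-labelled libraries, against 28.7 CPM in the control. Its order over the 3 libraries was that of BMP4. FSTL3, a relative of follistatin, stood at 10.3 and 6.50 CPM in the sh1- and sh2-labelled libraries, against 5.86 CPM in the control. TWSG1, which encodes a modulator of BMP availability, stood at 104 and 85.4 CPM in the sh1- and sh2-labelled libraries, against 82.7 CPM in the control.

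Among the other ligand genes BMP7 and BMP8B were low with both labels. BMP7 stood at 8.81 and 11.2 CPM in the sh1- and sh2-labelled libraries, against 29.6 CPM in the control, with a log2 fold change of -1.56 (SE 0.37, unadjusted p = 0.0022, adjusted p = 1.00 by edgeR). Unlike BMP7, BMP4 lay above the control with the sh1 label, so the BMP ligand genes did not share a direction there. BMP8B stood at 2.10 and 1.90 CPM in the sh1- and sh2-labelled libraries, against 5.47 CPM in the control. BMP6 stood at 5.72 and 0.977 CPM in the sh1- and sh2-labelled libraries, against 1.17 CPM in the control, so that it was high with the sh1 label alone. Of the 16 other ligand genes with a count, 10 lay below the control with the sh1 label and 13 with the sh2 label. Over all genes with a count, 44.6% did so with the sh1 label and 48.4% with the sh2 label.

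TGF-beta target genes had no common direction. Of 15, 8 lay below the control and 7 above it with each label, with medians of -0.11 for the sh1 label and -0.07 for the sh2 label. Over all genes with a count, 44.6% lay below the control with the sh1 label and 48.4% with the sh2 label. CCN2, which encodes a secreted matricellular protein and also responds to YAP, stood at 68.6 and 21.5 CPM in the sh1- and sh2-labelled libraries, against 149 CPM in the control, with a log2 fold change of -1.73 (SE 0.53, unadjusted p = 0.00975, adjusted p = 1.00 by edgeR). With no filter on low counts the same test called CCN2 lower (log2 fold change -1.74, adjusted p = 0.000571 by edgeR). It was then 1 of 41 genes called among 29390. With the filter, DESeq2 and the likelihood ratio test did not call it either. RHOB, a small GTPase gene, stood at 77.3 and 74.2 CPM in the sh1- and sh2-labelled libraries, against 139.8 CPM in the control. COL4A1, a basement membrane collagen gene, stood at 61.2 and 34.0 CPM in the sh1- and sh2-labelled libraries, against 84.6 CPM in the control.

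Receptors, SMADs and their regulators lay on both sides of the control. BMPR2, the type II BMP receptor gene, stood at 36.3 and 59.6 CPM in the sh1- and sh2-labelled libraries, against 35.9 CPM in the control. ENG, a co-receptor gene, stood at 13.5 and 12.7 CPM in the sh1- and sh2-labelled libraries, against 9.70 CPM in the control, and ACVR2A, an activin receptor gene, at 7.23 and 9.43 CPM in the sh1- and sh2-labelled libraries, against 6.57 CPM in the control. Of the 14 other receptor genes, 7 lay below the control with the sh1 label and 6 with the sh2 label. Over all genes with a count, 44.6% did so with the sh1 label and 48.4% with the sh2 label. SMAD1 stood at 6.58 and 11.1 CPM in the sh1- and sh2-labelled libraries, against 10.9 CPM in the control, so that it was low with the sh1 label alone. SMAD2 stood at 84.5 and 124 CPM in the sh1- and sh2-labelled libraries, against 85.0 CPM in the control, and SMAD5 at 84.8 and 73.7 CPM in the sh1- and sh2-labelled libraries, against 69.3 CPM in the control. Among the intracellular regulators, SKIL, a SMAD corepressor gene, stood at 50.3 and 49.6 CPM in the sh1- and sh2-labelled libraries, against 38.4 CPM in the control. TGIF2, another corepressor gene, stood at 14.6 and 14.2 CPM in the sh1- and sh2-labelled libraries, against 20.5 CPM in the control, and NEDD4L, a ubiquitin ligase gene, at 68.9 and 73.6 CPM in the sh1- and sh2-labelled libraries, against 86.2 CPM in the control.

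Genes of the latent complex, which stores secreted TGF-beta in the matrix, and of its activation did not share a direction. LTBP1, a latent TGF-beta binding protein gene, stood at 12.5 and 25.1 CPM in the sh1- and sh2-labelled libraries, against 24.9 CPM in the control. LTBP4 stood at 2.76 and 5.06 CPM in the sh1- and sh2-labelled libraries, against 2.34 CPM in the control. ITGB6, which encodes the beta subunit of an integrin that activates latent TGF-beta on epithelium, stood at 48.3 and 57.9 CPM in the sh1- and sh2-labelled libraries, against 73.3 CPM in the control. ITGAV, which encodes the alpha subunit of that integrin, stood at 429 and 417 CPM in the sh1- and sh2-labelled libraries, against 341 CPM in the control. THBS1, which encodes thrombospondin 1, an activator of latent TGF-beta, stood at 545 and 204 CPM in the sh1- and sh2-labelled libraries, against 351 CPM in the control, so that its shRNA libraries lay on opposite sides of the control. Of the 8 with a count among 9 listed, 4 lay below the control with the sh1 label and 2 with the sh2 label. Over all genes with a count, 44.6% did so with the sh1 label and 48.4% with the sh2 label.

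**Figure D4:**
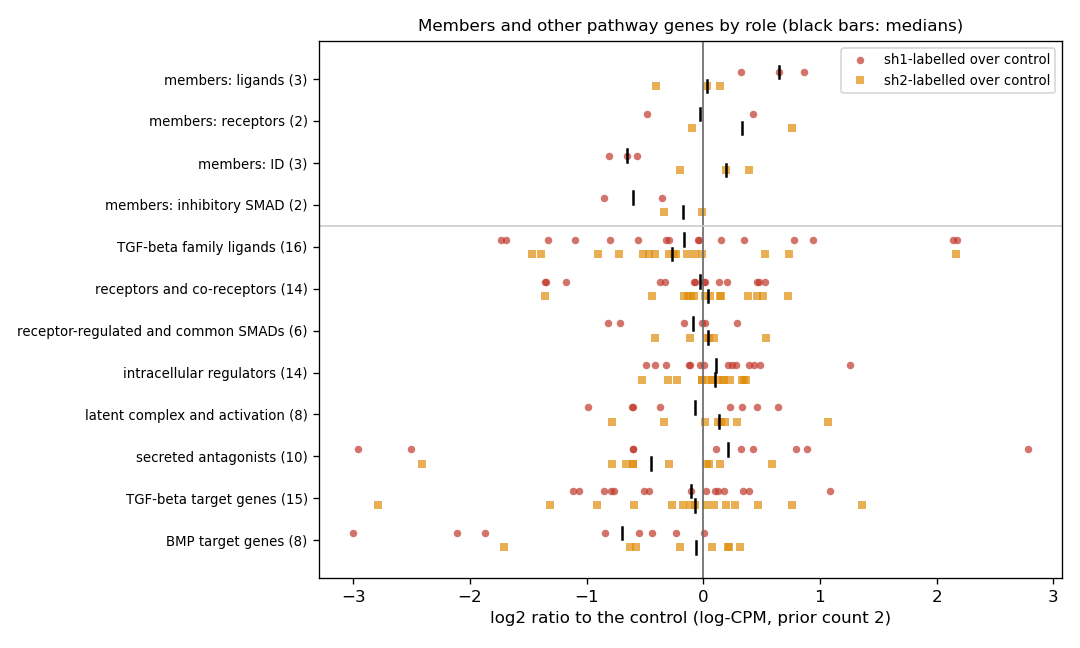
Log2 ratio to the control of the 10 genes (top 4 rows) and of the other pathway genes with a count in any library, by role, in the sh1- and sh2-labelled libraries, with 1 point per gene and black bars at the medians. With the sh1 label 7 of the 8 BMP target genes lie left of 0, and secreted antagonists lie on both sides of it.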

How the data were processed

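Raw read counts per gene were taken as deposited. The authors made them with featureCounts 1.6.4 against an hg38 annotation with strand option 1, per the file headers, whereas the submitters' processing notes name TopHat2, HTSeq and hg19. Exonic gene lengths, another measure in the same deposited table, came with the counts. All 52179 gene identifiers shared with GENCODE 29 have the same start and end there. Symbols were attached by identifier for 56558 of 60554 genes. Total counts were 15146805 to 17336936 per library.

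Genes passing filterByExpr (17801) were scaled by TMM (factors 1.004, 1.003 and 0.993 in the sh1- and sh2-labelled libraries and the control). Both shRNA lines were compared with the control in R 4.3.3 by edgeR 4.0.16's two-sided quasi-likelihood test with Benjamini-Hochberg adjustment over all tested genes at 0.05 (1 residual degree of freedom). The SE is the absolute log2 fold change over the square root of the F statistic. P-values measure only the spread between these samples, each gene's spread being moderated toward that of all tested genes (8.35 prior degrees of freedom). Ratios of single libraries have exact conditional 95% intervals for counting error, and log2 ratios use a prior count of 2. Alternatives covered scaling, filter, test (DESeq2 1.42.0, likelihood ratio), prior count and leaving out each shRNA library. The members and lists were chosen with earlier results of these data known. Named pathway genes are up to 3 per role with at least 5 CPM in a library and the largest absolute log2 fold change. INHBB, DLX5, MSX1, MSX2, ATOH8, GATA2, SOSTDC1, CHRD, BMPER, ITGAV, THBS1, the markers and the overlapping genes are named beyond that rule, after their values were seen.

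Promoter windows are RefSeq's, on GRCh38.p14, a patch of the assembly that hg38 names. The library kit and read layout are not given in the sources used here. If reads were not separated by strand, overlapping genes on opposite strands cannot be told apart.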

Additional observations from a re-analysis of the deposited data

How the results depend on the processing

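The count of the 10 genes called was 0 with DESeq2 size factors, no filter, DESeq2 and the likelihood ratio test. Over all genes edgeR's quasi-likelihood test called 0, against 41 with no filter, 15 with DESeq2 and 38 with the likelihood ratio test. Among the 96 other pathway genes the number called was 0, against 1 (CCN2) with no filter. At 1.5-fold in place of 2-fold, chosen after the data were seen, 5 of the 10 passed with the sh1 label and 1 with the sh2 label. The median log2 fold change of the 10 lay between -0.42 without the sh2-labelled library and 0.010 without the sh1-labelled library, values with no test. Without the sh1-labelled library, 3 genes had the opposite sign: BMP4 at -0.41 (0.86 without the sh2-labelled library), ID1 at 0.39 (-0.56) and ID2 at 0.20 (-0.65). The other 7 kept their sign there, and all 10 did without the sh2-labelled library. With a prior count of 0.5 all 10 kept their sign. No paired analysis was possible because the control is a single library. Each line is 1 library, so depth limits SMAD7 and TGFB2 most, and culture-to-culture variation was not measured.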
